A study of Mus musculus with 4 samples.

Results

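Translation initiation, elongation and release factors were examined in mouse extraembryonic endoderm (XEN) cells and embryonic stem (ES) cells. The members were the genes whose only annotated symbol began with Eif1 to Eif6, Eef1 or Eef2, Etf1, Gspt or Pabpc, leaving out Eif2s3x and Eif2s3y. The array held 53 such genes, measured by 75 probe sets, out of 8251 genes with a single symbol and 12488 probe sets. Each gene was represented by its probe set with the highest mean signal over the 4 arrays. The name rule also took in regulators of these factors: the eIF2 kinases Eif2ak1 to Eif2ak4, the 4E-binding proteins Eif4ebp1 and Eif4ebp2, the eEF2 kinase Eef2k and Eef1akmt1, a methyltransferase of eEF1A.

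Total RNA of 4 cultures was hybridised, 1 Affymetrix MG_U74Av2 array for each. The XEN group held 3 cultures. IM8A1-I and IM8A1-II were both passage 27 cultures of the IM8A1 line (PO strain). The first of these grew on gelatin with 70% EMFI-CM (a medium name of the labels), and IM8A1-II was kept for 4 days on plastic in RPMI 1640 with 20% FBS. XEN1-3 was a passage 18 culture of an ICR strain line, on gelatin in 70% EMFI-CM. The ES group was a single culture of R1 cells, undifferentiated per its label, on gelatin with LIF, the cytokine that keeps mouse ES cells undifferentiated. The 3 XEN arrays thus stand for 2 lines, and there was 1 ES array, which is assumed in every test to vary as the XEN arrays do. Whether the IM8A1 cultures were separate thaws is not stated in the labels, so p-values measure only the spread between these cultures.

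Array medians lay between 48.8 and 52.2 units in XEN and at 46.7 in ES. All 11 XEN markers examined, among them Gata6, Sox17 and Lama1, were higher in XEN, and all 10 ES markers, among them Pou5f1, Sox2 and Nanog, were lower, in limma's test adjusted over all probe sets. The summed signal of the 11 XEN markers was 26587 to 35343 units on the XEN arrays and 857 on the ES array. That of the 10 ES markers was 224 to 256 units in XEN and 22238 in ES. Fibroblast and feeder markers summed to 1011 to 1232 units in XEN and 1971 in ES over 14 genes, with Col3a1, Postn, Prrx1 and Dcn under the background limit on all arrays. Trophoblast markers summed to 84 to 129 units in XEN and 928 in ES over 7 genes. Tfap2c alone gave 767 units of the ES sum, and of the others Cdx2, Elf5 and Esx1 were under the limit on all arrays. Germ layer markers summed to 236 to 441 units in XEN and 362 in ES over 11 genes, of which Fgf5, Pax6 and Gsc were under it on all arrays. The part these cell types play in the values below was not tested. The ES array came from another chip lot and run day than the XEN arrays, so that batch and cell type cannot be told apart. Cell line and labelled culture also differed between the groups and cannot be told apart from cell type either. The run record of XEN1-3 carries a message that no fluid was detected in the fluidics station, and counts are therefore also given without it.

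Translation of most mRNAs starts when eIF2 brings the initiator tRNA to the small ribosomal subunit, where eIF1, eIF1A, eIF3 and eIF5 assemble with it. The eIF4 factors bind the 5′ cap, unwind the leader and recruit this complex, and poly(A) binding protein bridges to the other end of the mRNA. Control runs through phosphorylation of eIF2, which the Eif2ak kinases carry out under stress, and through the 4E-binding proteins, which block cap binding until the kinase mTOR phosphorylates them. During elongation eEF1A delivers aminoacyl-tRNAs and eEF2 moves the ribosome, and at a stop codon eRF1 and eRF3, encoded by Etf1 and the Gspt genes, release the chain.

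Of the 49 genes that could be tested, 3 (6.12%) fell in XEN relative to ES and 0 rose, where 5.04% of all tested probe sets fell and 5.58% rose. The 3 were Eif2s2, Eif1ax and Eif2a. RefSeq promoter sequences (assembly GRCm38.p6), matched by gene ID, were used for 41 of the 53 genes. The 150 bases before the annotated start are shown for the 3 genes that fell, since they are the members the test separates. Capitals mark matches to the 6 motifs named below, and sequences run 5′ to 3′ on the strand of the gene.
Eif2s2, chr2:154892907-154893056, minus strand: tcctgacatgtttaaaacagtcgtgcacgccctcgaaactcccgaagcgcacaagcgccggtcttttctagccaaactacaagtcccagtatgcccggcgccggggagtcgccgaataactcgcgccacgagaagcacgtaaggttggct
Eif2a, chr3:58525671-58525820, plus strand: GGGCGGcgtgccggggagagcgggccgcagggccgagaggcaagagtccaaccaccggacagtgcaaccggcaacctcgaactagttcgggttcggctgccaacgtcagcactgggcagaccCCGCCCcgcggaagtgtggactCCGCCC
Eif1ax, chrX:159372028-159372177, plus strand: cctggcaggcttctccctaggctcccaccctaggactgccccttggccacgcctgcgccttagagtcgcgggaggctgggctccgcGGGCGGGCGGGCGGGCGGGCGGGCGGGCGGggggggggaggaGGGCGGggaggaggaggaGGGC

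Motifs were searched on both strands in the whole window of 250 bases before and 50 after the first listed start. The E-box CACGTG was present in 8 of 41 member promoters (19.5%), against 10.7% of the 5112 promoters of tested genes and 7.24% of all 27025 promoters. The ETS motif CCGGAAG was present in 13 (31.7%), against 18.5% and 9.12%. The GC box GGGCGG was present in 29 (70.7%), against 65.5% and 35.9%, with overlapping matches in the repeat of Eif1ax. CCAAT was present in 11 (26.8%), against 38.7% and 37.9%, TATAAA in 4 (9.76%), against 8.2% and 14.2%, and the NRF1 motif in 3 (7.32%), against 11% and 4.78%. Among the 3 genes that fell, Eif1ax and Eif2a held the GC box, Eif1ax also held the ETS motif, and Eif2s2 held the NRF1 motif, downstream of its start and outside the bases shown. The median GC content of the 250 bases before the start was 60.4% in members and 60% in tested genes. These matches describe letters in the window and not bound sites.

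The comparison of XEN with ES asked which of these factors differ between these XEN cultures and the R1 ES culture. Probe sets entered the test where any array reached a background limit of 27.2 units, the 40th percentile of all values, and 49 of the 53 members were tested. The probe sets of Eif4e, the cap-binding protein, Eif4h, a helicase partner, Eif4enif1, a carrier of eIF4E, and Eef1g, a subunit of the eEF1 exchange complex, lay under the limit on all 4 arrays. Their signals were between 1.2 and 25.4 units in XEN and between 2.2 and 19.2 in ES. Since every cell uses eIF4E, these probe sets give no level for their genes. A member that was tested passed the limit on at least 1 array, so the counts below are not counts over all members.

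At an adjusted p under 0.05 in limma's moderated test, 3 of 49 members were lower in XEN (6.12%) and 0 were higher, with 11 lower and 0 higher at an unadjusted p under 0.05. Among all 8587 tested probe sets 5.04% were called lower and 5.58% higher, and 14.5% and 15.1% at the unadjusted threshold. The share of members called lower was therefore close to the background. Without XEN1-3, 8 members were called lower (16.3%, with 8.28% of all probe sets), namely Eef1d, Eif1ax, Eif2a, Eif2s2, Eif3d, Eif3k, Eif3l and Eif4ebp2. Without IM8A1-I or without IM8A1-II only Eif2s2 was called (2.04% of members, with 2.11% and 2.46% of all probe sets). Fewer cells of a type and less RNA per cell cannot be told apart in these bulk samples.

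The order of the arrays was also counted, whether or not a member passed. All 3 XEN arrays lay below the ES array for 26 of 49 members (53.1%), against 34% of all tested probe sets, and above it for 6 members (12.2%), against 38.9%. The 6 were Eef1a2, Eif1b, Eif2ak3, Eif3f, Eif5 and Gspt2. Among the 26, Eef2k and Eif5a passed the background limit on the ES array alone, so the filter fixed their place below ES. Neither is among the 36 bright members described below. The median log2 change of the 49 members was -0.25, against 0.05 over all tested probe sets, with the middle 50% of members between -0.72 and 0.05. Among the 36 members at or above 84.7 units (the 60th percentile of all values) on every array, 21 were lower in all 3 XEN arrays (58.3%, against 37.9% of the 3944 probe sets as bright) and the median was -0.27, against -0.01. Taken array by array, the median difference from ES was -0.31 (IM8A1-I), -0.40 (IM8A1-II) and -0.33 (XEN1-3). At least 2-fold differences from ES on all 3 XEN arrays were seen for 3 members, the same that passed the test, all lower (background 7.73%), and for 0 members higher (background 8.13%). Changes were mostly small: 40 members (81.6%) differed by under 2-fold, against 75% of all tested probe sets. Among the 36 bright members the share was 80.6%, close to the 81.3% of probe sets as bright.

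**Figure D1:**
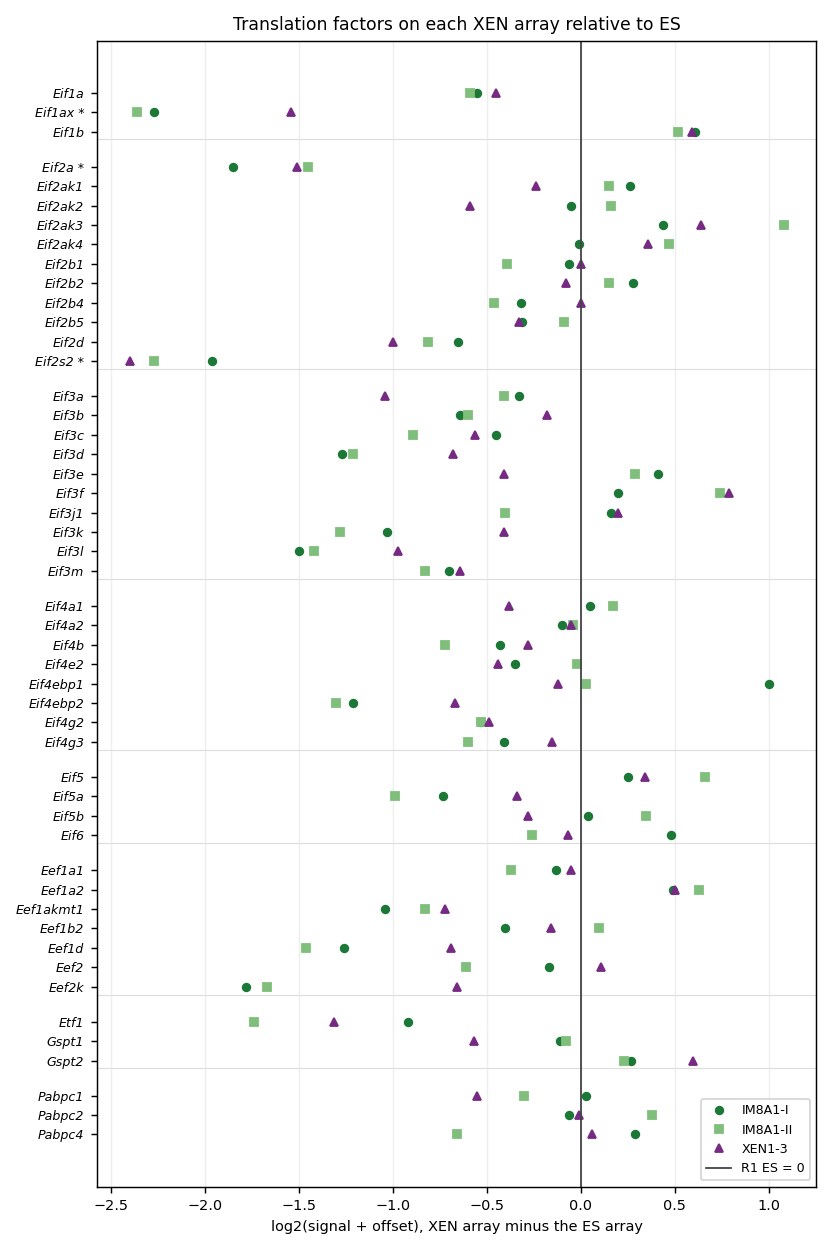
Difference of log2 signal (25th percentile offset added) between each XEN array and the ES array for the 49 tested translation factors, grouped from top to bottom by role; each point is 1 array, the vertical line at 0 is ES, and stars mark adjusted p under 0.05. Eif1ax, Eif2a and Eif2s2 are the starred genes, with all 3 points at -1.45 or below, and 26 genes have all 3 points left of the line.

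**Figure D2:**
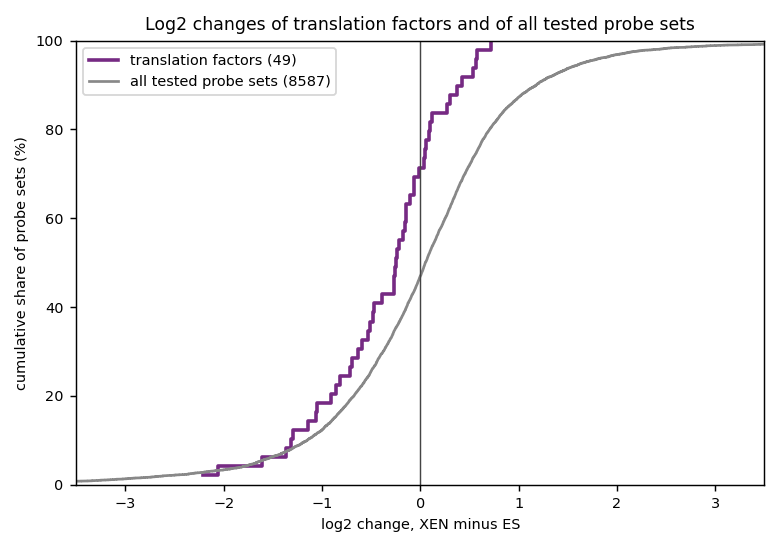
Cumulative share (%) of probe sets by log2 change, XEN minus ES, for the 49 translation factors (purple line) and all 8587 tested probe sets (grey line); the axis shows changes from -3.5 to 3.5. The line of the translation factors runs left of the other around its median of -0.25 and ends at 0.72, its highest value.

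Eif2s2 encodes the beta subunit of eIF2, which contacts the GTPase activating factor eIF5. Its brighter probe set gave 105 (IM8A1-I), 82.6 (IM8A1-II) and 74.6 (XEN1-3) units in XEN, against 439 units in ES. Every XEN array was thus well below ES, with little spread between the XEN arrays. On the log2 scale with the offset added it fell by 2.21 ± 0.30 (SE, limma adjusted p = 0.0137), a 4.63-fold difference. The gene's other probe set did not show this fall: it stood at 89.5, 85 and 107 units in XEN and 78.6 in ES, a log2 change of 0.22 ± 0.28 (limma adjusted p = 0.641). The first was the brighter of them only through its ES signal, since its XEN mean was 87.5 units, against 93.8 for the other. The rule of highest mean signal thus chose it through the ES value that the test compares. With the log2 values of both probe sets averaged the change was -0.99 and did not pass (limma adjusted p = 0.0722).

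Eif1ax, on the X chromosome, encodes eIF1A, which keeps the scanning complex open until a start codon is found. Its signal was 202 (IM8A1-I), 189 (IM8A1-II) and 341 (XEN1-3) units in XEN, against 1013 units in ES. The IM8A1 cultures were close to each other and lower than XEN1-3, and all 3 were below ES. It fell by 2.06 ± 0.40 in log2 (SE, limma adjusted p = 0.0324), or 4.16-fold. Its dimmer second probe set showed the same order, with 18.8, 19.2 and 69.3 units in XEN and 134 in ES, and a log2 change of -1.81 ± 0.63 that did not pass (limma adjusted p = 0.125). The call was lost without IM8A1-I (limma adjusted p = 0.0864), without IM8A1-II (0.0723), where the lines weighed equally (0.06), where the limit served as a floor (0.105), where dim probe sets were kept (0.0508) and with both probe sets averaged (0.0667).

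Eif1a, an autosomal gene for a near-identical protein, had 396, 384 and 426 units in XEN and 585 in ES on its brighter probe set, and 356, 269.5 and 286 units in XEN and 646 in ES on the other. Both were lower in all 3 XEN arrays, by -0.53 and -1.07 in log2, without passing (limma adjusted p of 0.232 and 0.0722). Because the 2 genes are close copies, their probe sets may share targets. Eif1b, a copy of the start site fidelity factor eIF1, went the other way, with 606, 569.8 and 599 units in XEN and 394 in ES. Its log2 change was 0.57 ± 0.25 and did not pass (limma adjusted p = 0.197), though the 3 XEN values lay within 0.09 of each other in log2.

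Eif2a encodes eIF2A, a single-chain protein distinct from the eIF2 complex that can bring initiator tRNA to some mRNAs. Its signal was 98.7 (IM8A1-I), 133 (IM8A1-II) and 128 (XEN1-3) units in XEN, against 384 units in ES, so that the groups did not overlap. It fell by 1.61 ± 0.30 in log2 (SE, limma adjusted p = 0.0297), or 3.04-fold. The call was lost without IM8A1-I (limma adjusted p = 0.0793), without IM8A1-II (0.0665) and where the limit served as a floor (0.066). Eif2d, another factor that binds initiator tRNA outside eIF2 and also acts in ribosome recycling, stood at 252, 225 and 195 units in XEN and 402 in ES. Its log2 change of -0.82 ± 0.28 did not pass (limma adjusted p = 0.121), and its second, dim probe set went the other way, with 31.7, 19.4 and 34 units in XEN and 17.3 in ES (0.46 ± 0.39).

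Of the 11 tested members with Eif2 symbols, 2 were called lower (18.2%, the background being 5.04%) and 0 higher. The 2 were Eif2a and Eif2s2. The probe set of Eif2s2 was chosen through the ES value that the test compares, so no excess is read from this share. Eif2b1, Eif2b2, Eif2b4 and Eif2b5 encode subunits of eIF2B, which reloads eIF2 with GTP. On their brightest probe sets the log2 changes lay between -0.26 and 0.12, with limma adjusted p-values of 0.586 to 0.818. Eif2b5, the catalytic subunit, stood at 454, 529 and 447 units in XEN and 565 in ES. Its second probe set was also lower in all 3 XEN arrays, at 262, 254 and 269 units against 406 in ES. That log2 change was -0.61 ± 0.26 and did not pass (limma adjusted p = 0.182). Among the kinases that phosphorylate eIF2, Eif2ak3 (PERK, the sensor of endoplasmic reticulum stress) stood at 84, 137 and 98 units in XEN and 59.2 in ES, a log2 change of 0.72 ± 0.34 that did not pass (limma adjusted p = 0.228). Eif2ak1 (the haem-regulated kinase), Eif2ak2 (PKR, activated by double-stranded RNA) and Eif2ak4 (GCN2, activated by uncharged tRNA) had log2 changes of 0.06, -0.16 and 0.27, and for each of them the ES value lay inside the range of the XEN values.

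eIF3, the largest initiation factor, is a scaffold on the small ribosomal subunit. Of its 10 tested genes 0 passed in limma's test. At an unadjusted p under 0.05, 3 were lower and 0 higher (14.5% and 15.1% of all tested probe sets). In all 3 XEN arrays 7 of the 10 were lower (70%, against 34% of all tested probe sets). Eif3l, a subunit at the edge of the complex, had the largest change, with 919, 971 and 1334 units in XEN, against 2622 units in ES. Its log2 change was -1.30 ± 0.31 with a limma adjusted p of 0.0553, just outside the threshold. Eif3d, the subunit that can bind the cap of certain mRNAs, stood at 1055, 1105 and 1593 units in XEN and 2561 in ES (log2 change -1.05 ± 0.33, limma adjusted p = 0.0965). Eif3k, the partner of Eif3l, stood at 967, 812 and 1485 units in XEN and 1982 in ES (-0.91 ± 0.39). In these 3 genes XEN1-3 was the XEN array closest to ES.

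Eif3m stood at 799.9, 732 and 838 units in XEN and 1308 in ES, and Eif3c, part of the core, at 1881, 1379 and 1748 units in XEN and 2573 in ES. Eif3a and Eif3b, also core subunits, had log2 changes of -0.59 and -0.47. For Eif3a it was XEN1-3, at 369.5 units, that lay farthest from the 771 units of ES, while IM8A1-I had 613 and IM8A1-II 576. Eif3j1, a loosely bound subunit, stood at 896, 601.5 and 921 units in XEN and 799.6 in ES, with a log2 change of -0.01 ± 0.34. Eif3e stood at 536, 493.5 and 299 units in XEN and 402 in ES, so that the IM8A1 cultures lay above ES and XEN1-3 below. Its dimmer probe set had another order, with 8.2, 41.5 and 51.7 units in XEN and 18.3 in ES. Eif3f was dim, with 22.1, 36.7 and 38.6 units in XEN and 17.8 in ES.

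**Figure D3:**
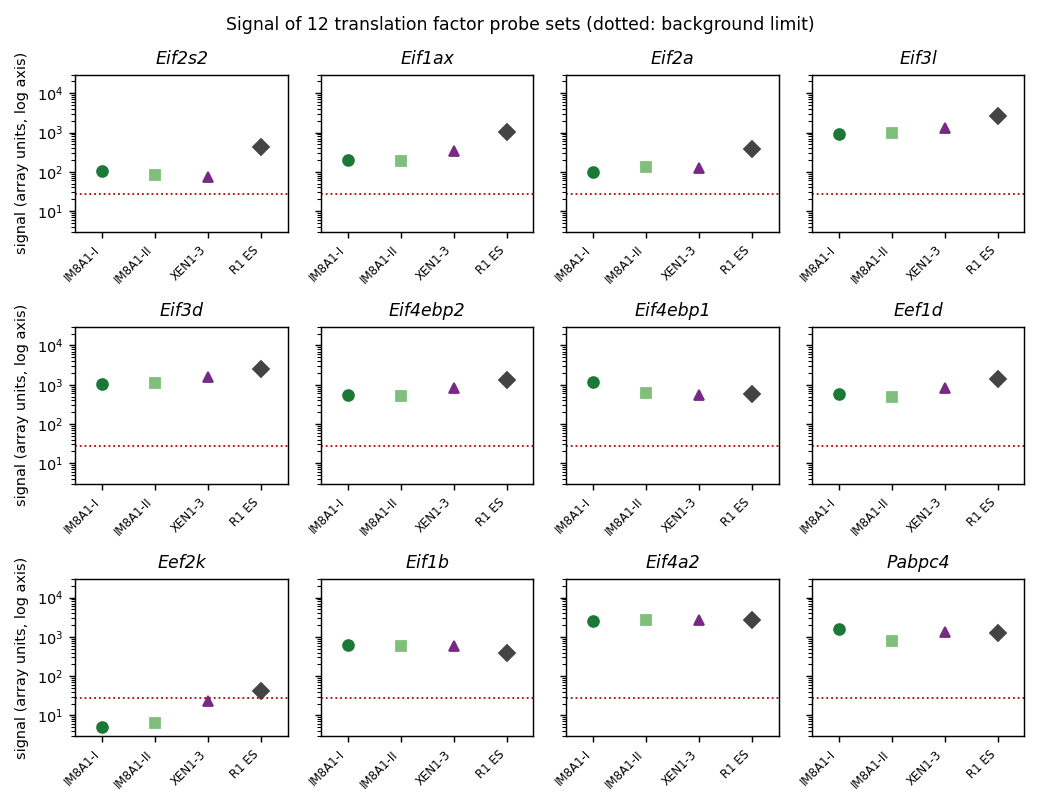
Signal in array units on a log axis for 12 translation factors in the XEN cultures IM8A1-I, IM8A1-II and XEN1-3 and in R1 ES cells; each point is 1 array and the dotted line is the background limit of 27.2 units. Eif2s2, Eif1ax and Eif2a are highest in ES, Eif4a2 lies between 2563 and 2749 units on all arrays, and Eif4ebp1 is highest in IM8A1-I.

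Among the cap-binding factors and their regulators 0 of 8 tested genes passed in limma's test. At an unadjusted p under 0.05, 1 was lower and 0 higher (14.5% and 15.1% of all tested probe sets). The helicases of eIF4F differed little. Eif4a2 stood at 2563, 2676 and 2657 units in XEN and 2749 in ES, a log2 change of -0.06 ± 0.23, and Eif4a1 at 473, 516 and 348 units in XEN and 457 in ES. Eif4b, which stimulates the helicase, stood at 1039, 844 and 1149 units in XEN and 1399 in ES (log2 change -0.48). Eif4g2, a scaffold for translation without the cap-binding protein, had even XEN values of 80.7, 80.7 and 83 units and 121 in ES (-0.51 ± 0.26, limma adjusted p = 0.254). Eif4g3, a paralogue of the cap scaffold, and Eif4e2, a cap-binding protein linked to repression, had changes of -0.39 and -0.27.

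The 4E-binding proteins differed from each other. Eif4ebp2 stood at 563, 528 and 828 units in XEN and 1319 in ES on its brightest probe set, a log2 change of -1.06 ± 0.34 that did not pass (limma adjusted p = 0.106) but did without XEN1-3 (0.0307). Its second probe set showed no such difference, with 245, 309 and 237 units in XEN and 260.1 in ES, and the third was dim (21.6 to 50.6 units in XEN and 34.6 in ES). Eif4ebp1 stood at 1182 (IM8A1-I), 600.5 (IM8A1-II) and 538 (XEN1-3) units in XEN, against 587 units in ES. Only the IM8A1-I array was set apart, and the log2 change of 0.30 ± 0.48 did not pass (limma adjusted p = 0.714).

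Factors of subunit joining and of the later steps of initiation did not pass either, 0 of 4 with symbols Eif5 and Eif6 in limma's test (also 0 at an unadjusted p under 0.05). Eif5, which triggers GTP hydrolysis by eIF2, was higher in all 3 XEN arrays, at 480.3, 638 and 512 units against 401 in ES (log2 change 0.42 ± 0.29, limma adjusted p = 0.384). Eif5b, the GTPase that joins the ribosomal subunits, stood at 315, 393 and 249 units in XEN and 305 in ES, and Eif6, which keeps free large subunits apart from small ones, at 592, 351 and 402 units in XEN and 423 in ES. Their log2 changes were 0.04 ± 0.33 and 0.05 ± 0.36. The dimmer probe set of Eif5b was lower in all 3 XEN arrays, at 170, 146 and 138 units against 178 in ES. That log2 change was -0.22 and did not pass. Eif5a, the factor carrying the amino acid hypusine that helps ribosomes past difficult sequences, was near or under the limit, at 9.4 to 20.7 units in XEN and 29 in ES. Only the ES array passed the limit for Eif5a, so the filter fixed the direction and the probe set gives no level in XEN.

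In the elongation group 0 of 7 tested genes passed in limma's test. At an unadjusted p under 0.05, 2 were lower and 0 higher (14.5% and 15.1% of all tested probe sets). Eef1a1, which delivers aminoacyl-tRNAs in most cells, stood at 11478, 9750 and 12142 units in XEN and 12592 in ES, a log2 change of -0.18 ± 0.24 (limma adjusted p = 0.647). Eef1a1 has many processed copies in the genome that its probes could also detect. Its paralogue Eef1a2, the form of muscle and neurons, was dim, at 66, 73.6 and 66.6 units in XEN and 43.9 in ES. Eef2, the translocase, stood at 3993, 2948 and 4854 units in XEN and 4504 in ES, with ES inside the XEN range.

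Eef1d, a guanine exchange subunit for eEF1A, stood at 564, 491 and 847 units in XEN, against 1369 units in ES. It was lower in all 3 XEN arrays, by -1.14 ± 0.37 in log2, and did not pass (limma adjusted p = 0.108). Eef1b2, the other exchange subunit tested, stood at 81.2, 119 and 97.8 units in XEN and 110.1 in ES, with ES inside the XEN range. The dimmer probe set of Eef1b2 was higher in all 3 XEN arrays, at 41.8, 38.2 and 32.3 units against 27.1 in ES, and did not pass. Eef2k, the kinase that inactivates eEF2, was under the limit in XEN, at 5, 6.3 and 23.2 units, and at 42.9 in ES, at least 1.58-fold lower. Its log2 change of -1.37 ± 0.56 did not pass (limma adjusted p = 0.172). Eef1akmt1 stood at 66.9, 78.7 and 86.3 units in XEN and 149 in ES (log2 change -0.86 ± 0.29, limma adjusted p = 0.111).

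Etf1, the release factor that reads all stop codons, had 5 tested probe sets. The brightest stood at 996, 557 and 757 units in XEN and 1890 in ES (log2 change -1.32 ± 0.37, limma adjusted p = 0.0797). The next 3 gave changes of -0.73, -0.69 and -0.86, and the fifth, at 22.2 to 35 units in XEN and 5.5 in ES, gave 1.27. The 4 bright probe sets thus pointed the same way without passing. Gspt1, the eRF3 GTPase that works with eRF1, stood at 1309, 1340 and 955 units in XEN and 1418 in ES, and Gspt2, an intronless copy on the X chromosome, at 104, 101 and 133 units in XEN and 84.4 in ES.

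Of the poly(A) binding proteins, Pabpc1 stood at 6128, 4886 and 4115 units in XEN and 6012 in ES (log2 change -0.27 ± 0.30). Pabpc4 stood at 1556, 799 and 1321 units in XEN and 1270 in ES, and Pabpc2 was dim, at 49.2 to 70.5 units in XEN and 51.8 in ES. For all 3 genes the ES value lay inside the XEN range, and none passed (limma adjusted p-values of 0.584 to 0.894).

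Agreement between probe sets of a gene limits how far these values can be read. Of 13 members with more than 1 tested probe set, 6 had log2 changes of the same sign throughout and 7 had opposite signs, and in 4 of the 7 (Eif2d, Eif2s2, Eif4ebp2 and Etf1) the changes were also at least 2-fold apart. In Eif2d and Etf1 the differing probe set was dim, whereas in Eif2s2 it lay at 78.6 to 107 units, above the limit on every array.

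**Figure D4:**
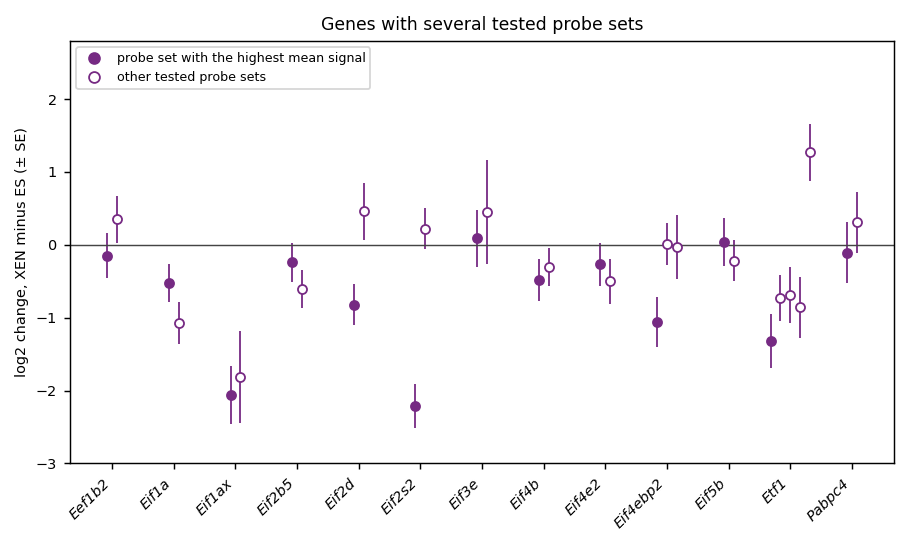
Log2 change, XEN minus ES, with its standard error for each tested probe set of the 13 members that have more than 1; filled points are the probe sets with the highest mean signal and open points the others. Both probe sets of Eif1ax lie far below 0 (-2.06 and -1.81), while those of Eif2s2 lie at -2.21 and 0.22.

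Within XEN, IM8A1-II was set against IM8A1-I, the same line in other culture, and XEN1-3 against IM8A1-I, another line in medium and on a surface with the same labels, with 1 array on each side and so no test. Both comparisons share the IM8A1-I array. No tested member was 2-fold or more higher or lower in IM8A1-II (background 3.51% higher and 2.48% lower). The largest differences were those of Eif4ebp1, at 600.5 units in IM8A1-II and 1182 in IM8A1-I, and Pabpc4, at 799 and 1556 units, with log2 differences of -0.96 and -0.95. They were followed by Etf1 (-0.83) and Eif6 (-0.74). In XEN1-3, 1 member was at least 2-fold higher than in IM8A1-I, Eef2k, at 23.2 and 5 units, both under the limit, and 1 lower, Eif4ebp1, at 538 and 1182 units (background 4.58% and 4.54%). Any 2 XEN arrays were 2-fold apart for 2 members (4.08%), against 16.1% of all tested probe sets, which include more dim ones. Among the 36 members bright on all arrays, the median log2 distance between the highest and lowest XEN array was 0.49. It was 0.46 for probe sets as bright.

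Genes of related processes were taken from lists chosen along with the members, and not all of them act on these factors. In the list of mTOR and 4E-binding protein signalling 1 of 20 tested genes rose and 1 fell, and the median log2 change was 0.09. Over all tested probe sets 5.58% rose and 5.04% fell. Mtor, the kinase itself, stood at 116, 128 and 94.8 units in XEN and 307 in ES and fell by 1.37 ± 0.29 (limma adjusted p = 0.042; 0.103 without IM8A1-I and 0.0819 without IM8A1-II). Akt1s1, an inhibitory partner of mTOR in its first complex, stood at 151, 152.5 and 153 units in XEN and 36.1 in ES and rose by 1.80 ± 0.26 (limma adjusted p = 0.0159; 0.0539 without IM8A1-I and 0.0515 without IM8A1-II).

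In the list of eIF2 phosphatases and stress response genes 3 of 14 tested genes rose and 0 fell, with a median of 0.93. The background was 5.58% higher and 5.04% lower. Dnajc3, a co-chaperone known to inhibit eIF2 kinases, stood at 289, 231 and 283 units in XEN and 55.3 in ES and rose by 2.07 ± 0.28 (limma adjusted p = 0.0137). The chaperone Hspa5, which holds PERK inactive, stood at 4434, 3937 and 3477 units in XEN and 1040 in ES and rose by 1.91 ± 0.26 (limma adjusted p = 0.0138; 0.0505 without IM8A1-I). The third was Xbp1, a transcription factor of the unfolded protein response, with a log2 change of 2.06 ± 0.27. None of the 3 encodes a phosphatase subunit, and the genes for such subunits in the list did not pass. Atf4, whose mRNA is translated when eIF2 is phosphorylated, stood at 3390, 1773 and 2084 units in XEN and 776 in ES. It did not pass (limma adjusted p = 0.0656) and was picked after its values were seen. Others of the list, also picked afterwards and not passing, had log2 changes of 3.67 (Atf3), 1.69 (Ddit3), 0.88 (Trib3) and -0.07 (Asns). Ddit3 stood at 1512 units in IM8A1-I, but at 206 in IM8A1-II, 193 in XEN1-3 and 115 in ES.

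In the ribosome biogenesis list 2 of 26 fell and 0 rose, where 5.04% of all tested probe sets fell and 5.58% rose. The median was -0.58, and 18 of 26 were lower in all 3 XEN arrays (34% of all tested probe sets). Nop10, of the box H/ACA particles that modify ribosomal RNA, stood at 517, 531 and 816 units in XEN and 1892 in ES and fell by 1.62 ± 0.35 (limma adjusted p = 0.043; 0.108 without IM8A1-I and 0.0921 without IM8A1-II). Pes1, needed to mature the large subunit, stood at 133, 119 and 105 units in XEN and 326 in ES and fell by 1.39 ± 0.28 (limma adjusted p = 0.0357; 0.0829 and 0.0933 without the same arrays). A mixed list outside the name rule held cytosolic and mitochondrial translation factors, mRNA-binding proteins and other genes, so it is not 1 family. Of its 25 tested genes 0 passed in limma's test. At an unadjusted p under 0.05, 2 were higher and 2 lower (15.1% and 14.5% of all tested probe sets). The median was -0.09, with 12 lower and 7 higher in all 3 XEN arrays. Among 7 genes for enzymes and regulators of hypusine, polyamine and diphthamide synthesis 0 passed in limma's test (also 0 at an unadjusted p under 0.05), with a median of 0.15.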

How the data were processed

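The deposited files hold 1 linear intensity for each probe set of an array. Which software summarised the probes was not given in the sources used here. Chip type and fluidics message were read from the deposited run records. The 2% trimmed means (150.088 to 150.095) show that the values the authors deposited were already scaled alike. Arrays were rescaled to a common 2% trimmed mean, the 25th percentile (10.5 units) was added and log2 was taken, so fold changes of dim genes are understated. The 66 control probe sets were left out. The groups' difference was tested two-sidedly by limma 3.58.1 (R 4.3.3; eBayes, trend = TRUE, residual df 2, prior df 3.76), with Benjamini-Hochberg adjustment over 8587 probe sets. The fit was tested on simulated data. Symbols came from the platform annotation, and those of all members matched RefSeq by gene ID. Promoter motif letters were searched as given, with that of NRF1 having 1 free base; promoters on chromosome 18 were not used here. Figures were drawn with matplotlib 3.10.9.

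Members and lists were chosen with earlier results of these data known. Any member could be named. Full statistics go to members past the threshold, those 2-fold from ES on all XEN arrays or 2-fold apart within XEN, those whose probe sets disagree by 2-fold, and the 3 bright members with the smallest changes. Genes of other lists were named where past the threshold, apart from Atf4, Atf3, Ddit3, Trib3, Asns and examples of the marker lists. Alternatives changed the offset, floor, scaling, filter, variance trend, probe set and arrays.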

Additional observations from a re-analysis of the deposited data

Results flagged for a closer look

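Eif3e was picked out because the XEN lines lay on opposite sides of ES. Its log2 difference from ES was 0.41 in IM8A1-I and 0.29 in IM8A1-II, but -0.41 in XEN1-3. The difference between the lines was not tested, since XEN1-3 is a single array. The gene's dimmer probe set had another order, with differences of -0.62 (IM8A1-I), 0.85 (IM8A1-II) and 1.11 (XEN1-3).

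A bright probe set shared by Eif4a3, Eif4a3l1 and Gm5576 stood outside the comparisons because it carries 3 symbols. Its signals were 1062, 1097 and 1050 units in XEN and 1530 in ES (log2 change -0.51 ± 0.24, limma adjusted p = 0.225).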

How the results depend on the processing

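Under 13 alternatives 0 members were called higher, and the median change stayed negative, from -0.36 with median scaling, which moves the median of all probe sets to -0.04, to -0.22. The number called lower was 1 to 8 with a XEN array left out, 1 with the probe sets of a gene averaged, and 2 to 4 otherwise. Over all probe sets, 479 were higher and 433 lower, against 778 and 711 without XEN1-3, 233 and 211 without IM8A1-II, 185 and 181 without IM8A1-I, and 241 and 537 with the limit as a floor. Eif2s2 was called in all but the average over probe sets, Eif2a in 10 of 13 and Eif1ax in 7 of 13. For Eif2s2 the other alternatives all used the probe set that was brighter only through ES. The called genes of the other lists were followed in 12 alternatives. Dnajc3 and Xbp1 kept their call in all 12, Hspa5 in 11 and Akt1s1 in 10. Mtor and Pes1 kept it in 7 and Nop10 in 6. Counting each XEN line once was among the alternatives in which Mtor, Pes1 and Nop10 lost it. Members below ES on all 3 XEN arrays numbered 25 to 30 across scalings and offsets. Median scaling gave 2 members at least 2-fold lower in IM8A1-II than in IM8A1-I, and an offset of the 50th percentile or values raised to the limit gave 0 members 2-fold higher in XEN1-3 than in IM8A1-I. Of the 18 genes followed across alternatives, 4 turned sign in at least 1, all with limma adjusted p-values of 0.714 to 0.985 in the reported test. Eif3j1 was 0.01 with quantile normalization, 0.04 with each XEN line counted once and -0.12 to 0.18 with an array left out. Eif5b was -0.06 with median scaling, -0.04 with each line counted once, -0.09 averaged over probe sets and -0.12 to 0.20 with an array left out. Eif6 was -0.06 with median scaling and -0.17 to 0.20 with an array left out, and Eif4ebp1, reported at 0.30, was -0.05 without IM8A1-I and up to 0.52 without another array. The cause was not tested. No paired analysis was possible because the single ES culture shares no pairing with the XEN cultures. With 1 ES array, small changes could not be separated from the spread between cultures.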
